A study of Bombyx mori with 12 samples.

Results

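Transposon RNA was measured in BmN4 cells, a cultured silkworm (Bombyx mori) line of ovarian origin, after RNA interference against Mael. Of the 1716 transposon entries in the RNA table, 490 had a mean of at least 1 RPKM over the 6 RNA-seq libraries and were analysed. RPKM is reads scaled to entry length and library size, so levels can be set side by side between entries. The rule used the level over all 6 libraries and not the difference between groups. An entry low in 1 group could still pass through the others. MaelKD cells received siRNA against Mael, SiwiKD cells siRNA against Siwi, and LucKD cells siRNA against luciferase as the control. BmTE_RM6-5356, BmTE_RM6-4364, BmTE_RM6-5745 and BmTE_RM6-1880 were under 1 RPKM in both LucKD libraries and passed through the knockdown libraries. BmTE_RM6-3840 was under 1 RPKM in both MaelKD libraries and passed through the others. Every group was given 500 pmol of siRNA by nucleofection, with a repeat transfection, was grown at 26 °C and was collected on day 10, and each had 2 poly-A RNA libraries. Class and superfamily were read from the name of each entry: 63 of the 490 were LTR retrotransposons, 78 LINEs, 53 DNA transposons, 14 SINEs and 6 DIRS elements, and 274 carried no class.

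PIWI proteins bind small RNAs called piRNAs, which guide them to transposon transcripts. Siwi and Ago3 are the silkworm PIWI proteins, and in BmN4 cells they cut transposon RNA in turn and so make new piRNAs. Maelstrom (Mael) is a conserved piRNA pathway protein, and in Drosophila it is needed for the silencing of transposon loci that PIWI targets. LTR retrotransposons and LINEs copy themselves through RNA, SINEs borrow the machinery of LINEs, and most DNA transposons move by excision.

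The RNA libraries held 45.2 and 36.3 M reads in MaelKD, 32.5 and 40.6 M in SiwiKD and 44.2 and 33.0 M in LucKD, as recovered from the steps of the values. Between the 2 libraries of a group, the median absolute difference of an entry was 0.17 (MaelKD), 0.21 (SiwiKD) and 0.26 (LucKD) on the log2(RPKM + 1) scale. Separate cultures are not named in the labels, so the 2 libraries of a group may be technical repeats, and p-values cover no more than their spread. An exact permutation test of 2 against 2 libraries cannot give a two-sided p below 0.333, and calls rest on the fit over all entries. The tables list transposons alone, so the fall of Mael and Siwi RNA and the identity of the cells were not checked. Just inside the level threshold stood BmRT24, BmTE_RM1-259 and BmTE_RM6-5280, each with a mean of 1.00 RPKM, and just outside it BmTE_RM6-1248 with 0.995, BmTE_RM6-921 with 0.991 and BmTE_RM1-239 with 0.964 RPKM.

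After Mael knockdown a small set of transposon entries rose or fell in RNA, around a median difference close to 0. Against LucKD, 54 of 490 entries (11.0%) passed an adjusted p of 0.05 in limma, 41 higher (8.37%) and 13 lower (2.65%). The median log2 difference over all 490 was -0.01 and the quartiles were -0.21 and 0.21, while the 5th and 95th percentiles were -0.56 and 0.88. On the log2(RPKM + 1) scale, 18 of the rises and 2 of the falls reached 2-fold. Both MaelKD libraries stood above both LucKD libraries for 121 entries (24.7%) and below them for 117 (23.9%), and each of the 54 called entries was among these. In bulk RNA, fewer cells of a kind and less RNA per cell cannot be told apart.

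The entries that rose held a visible part of the transposon reads. All 1716 entries together took 3.08% and 2.77% of the reads in MaelKD, against 2.57% and 2.47% in LucKD. The 41 entries that rose, which were chosen by this contrast, took 0.719% and 0.627% in MaelKD, against 0.283% and 0.272% in LucKD. Few of the 41 held most of these reads. In MaelKD replicate 1, BmTE_RM1-42 had 113757 reads, BmTE_RM1-43 61849, Yamato 54730 and YAMATO_BM 20044. Entries that resemble each other may hold the same reads, so the shares may count some reads more than once. The 436 entries that did not pass took 2.29% and 2.07% in MaelKD, against 2.20% and 2.05% in LucKD, so those groups of libraries overlapped.

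The number of calls depended on single libraries. Without MaelKD replicate 2, 16 of the 41 rises and 1 of the 13 falls still passed. Without LucKD replicate 1 it was 22 and 9, without LucKD replicate 2 it was 34 and 4, and without MaelKD replicate 1 it was 25 and 4. The sign of all 54 differences was the same in each of these 4 omissions. This was fixed in advance, since no called entry had overlapping MaelKD and LucKD libraries. With the level filter removed, 19 entries passed, not all of them among the 54. Of the 13 falls, those of BmTE_RM6-181 and Rikishi_Kabuki_type alone passed there. The loss of calls without the filter is not repeated for each entry below. There were 12 rises and 1 fall that passed in each of the alternatives in which they were tested: BmTE_RM1-644, BmTE_RM1-432, BmTE_RM1-413, BmTE_RM1-43, BmTE_RM6-4376, BmTE_RM5-3163, BmTE_RM6-5630, BmTE_RM6-4364, BmTE_RM6-5356, Neet, BmTE_RM1-57, Gypsy-3_BM-I and the fall of Rikishi_Kabuki_type. Of these, BmTE_RM6-4364 and BmTE_RM6-5356 met the level rule only through the knockdown libraries.

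**Figure D1:**
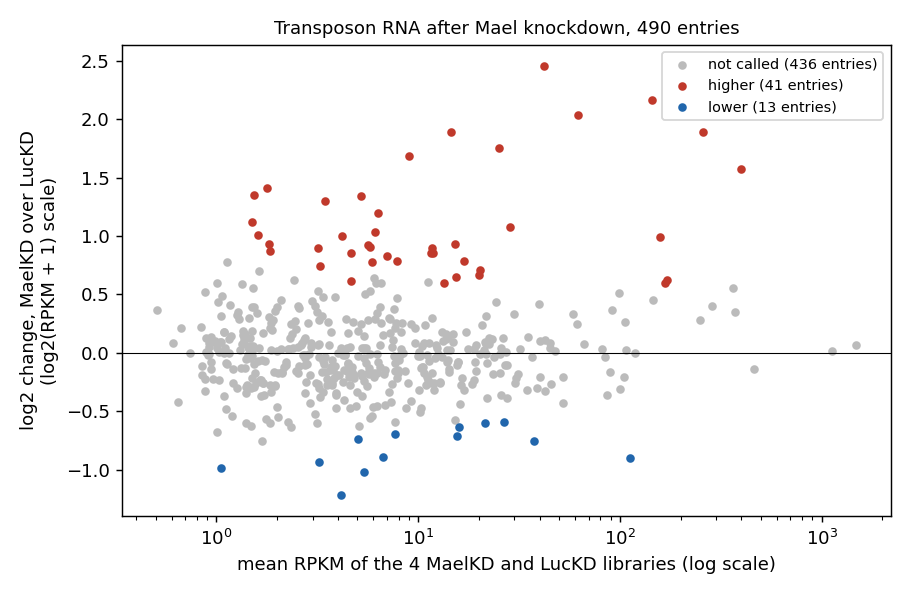
Log2 difference in RNA (MaelKD over LucKD, log2(RPKM + 1) scale) of each of the 490 entries against its mean level. The 41 entries called higher reach 2.45, the 13 called lower reach -1.22, and the median of all entries is -0.01.

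Every large class had a median difference near 0, and rises were found in 5 groups. Of the LTR retrotransposons, 10 of 63 rose and 3 fell (median log2 difference 0.02). Among LINEs 3 of 78 rose and none fell (median 0.00), and among DNA transposons 3 of 53 rose and none fell (median 0.03). Of the 14 SINEs 2 rose and 1 fell (median 0.03), and of the 274 unclassified entries 23 rose and 9 fell (median -0.02). No DIRS element passed among 6 (median -0.24), nor did the single Penelope and W entries tested. Whether classes differed from each other was not tested.

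**Figure D2:**
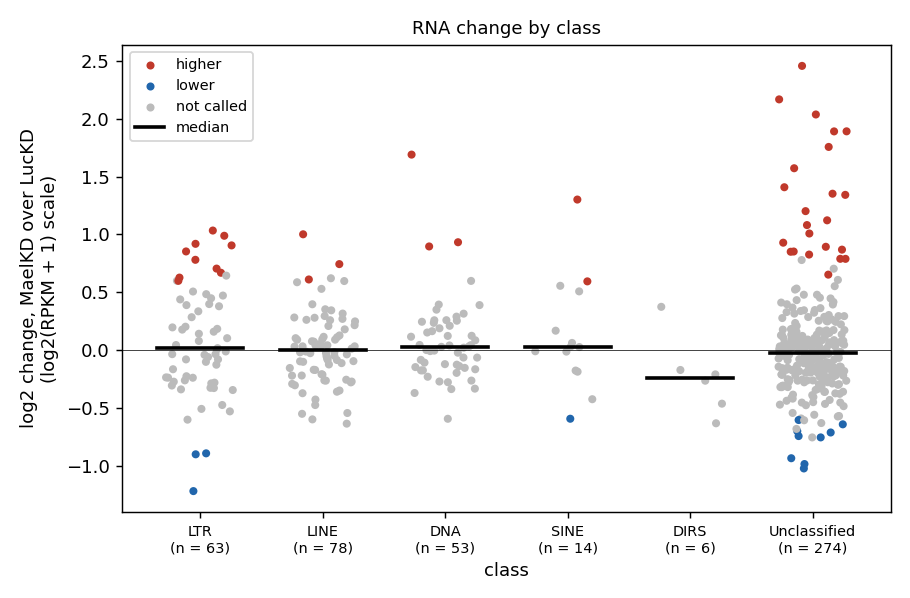
Log2 difference in RNA (MaelKD over LucKD, log2(RPKM + 1) scale) of each entry in the 5 named classes with more than 1 tested entry and of the unclassified entries, with the median as a bar. The medians shown lie between -0.24 (DIRS) and 0.03, and the unclassified entries hold the rise of 2.45.

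Pao elements, LTR retrotransposons common in insects, gave 7 of the 10 LTR rises. Of 19 tested Pao entries 7 rose and 1 fell, and the median log2 difference was 0.20, beside 8.37% rising and a median of -0.01 over all entries. With trimmed-mean scaling 5 rose, without the calls of the Yamato entries. Yamato, a Pao element described from the silkworm W chromosome, had 189 and 216 RPKM in MaelKD, against 125 and 142 RPKM in LucKD (log2 difference 0.60 ± 0.19, SE; adjusted p = 0.0406). YAMATO_BM, an entry of the same element, had 192 and 223 RPKM in MaelKD, against 118 and 151 RPKM in LucKD (0.63 ± 0.20, adjusted p = 0.0346). Both entries may hold the same reads, as may other entries that resemble each other, since the treatment of reads with several matches is not given in the sources used here.

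Among the 7 Pao entries that rose, those less abundant than the Yamato entries had larger log2 differences. Inoki had 7.84 and 7.55 RPKM in MaelKD, against 3.71 and 4.44 RPKM in LucKD (log2 difference 0.78 ± 0.20, adjusted p = 0.0073). BmTE_RM5-4827 had 14.8 and 15.7 RPKM in MaelKD, against 6.83 and 9.28 RPKM in LucKD (0.85 ± 0.20, adjusted p = 0.00316). These groups do not overlap, and the controls differ more between themselves than the knockdown libraries do. BmTE_RM1-607 had 6.04 and 9.41 RPKM in MaelKD and 3.10 and 4.00 RPKM in LucKD, and BmTE_RM1-661 had 5.91 and 9.76 RPKM in MaelKD and 2.81 and 4.56 RPKM in LucKD. In this pair the second MaelKD library was the higher by a wide margin. BmTE_RM1-629 completed the group with 23.5 and 27.5 RPKM in MaelKD, against 14.97 and 15.4 RPKM in LucKD. None of the 7 Pao rises passed without LucKD replicate 1 (log2 difference 0.45 to 0.77, adjusted p 0.0678 to 0.244) or without MaelKD replicate 2 (0.51 to 0.81, adjusted p 0.0870 to 0.534).

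Some abundant Pao elements did not pass. The entry named Pao had 66.8 and 102 RPKM in MaelKD, against 75.9 and 94.5 RPKM in LucKD, and Noguchi had 22.4 and 17.7 RPKM in MaelKD, against 17.1 and 23.6 RPKM in LucKD. In both the groups overlap (adjusted p = 0.969 and 0.989). The Pao entry BmTE_RM6-1950 fell: 4.64 and 4.06 RPKM in MaelKD, against 7.64 and 10.3 RPKM in LucKD (log2 difference -0.89 ± 0.21, adjusted p = 0.00319, lost without LucKD replicate 2 and without MaelKD replicate 2).

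Gypsy elements, the other large LTR superfamily, moved in both directions. Of 28 tested, 1 rose and 2 fell (median log2 difference -0.10). Gypsy-3_BM-I, an internal region without its terminal repeats by its name, had 8.61 and 8.44 RPKM in MaelKD, against 3.27 and 4.07 RPKM in LucKD (1.03 ± 0.20, adjusted p = 0.000564). Rikishi_Kabuki_type had 2.16 and 2.02 RPKM in MaelKD, against 5.92 and 6.43 RPKM in LucKD (-1.22 ± 0.23, adjusted p = 0.000424). On the log2(RPKM + 1) scale this was the most negative difference of all 490 entries, while with edgeR and with a pseudocount of 0.1 that of BmTE_RM6-3840 was more negative. Kabuki, a Gypsy element also described from the W chromosome, had 19.2 and 17.7 RPKM in MaelKD, against 15.9 and 23.9 RPKM in LucKD, and did not pass (adjusted p = 0.91). BmRT2 had 78.5 and 73.0 RPKM in MaelKD, against 102 and 197 RPKM in LucKD (-0.90 ± 0.22, adjusted p = 0.0053). Its control libraries lie far apart: the difference was -1.37 without LucKD replicate 1 and -0.43 without LucKD replicate 2. The call was lost without LucKD replicate 2 and without either MaelKD library.

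Of the other LTR entries, 1 of 5 Copia and 1 of 11 unplaced entries rose. LTR-2_BM-I, with no superfamily in its name, was among the abundant risers, with 237 and 184 RPKM in MaelKD, against 101 and 108 RPKM in LucKD (0.99 ± 0.20, adjusted p = 0.000731). It did not pass without MaelKD replicate 1. BmRT16, a Copia element, had 23.2 and 26.4 RPKM in MaelKD, against 15.8 and 14.6 RPKM in LucKD (0.67 ± 0.18, adjusted p = 0.0116), and did not pass in any of the 4 omissions (adjusted p 0.0553 to 0.186).

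In the limma fit of the deposited values the LINE rises all lay in the CR1 group, a family of non-LTR elements. They were 2 of 7 CR1 entries and 1 of 7 CR1-L2 entries. BmTE_RM1-652 (CR1) had 5.65 and 6.18 RPKM in MaelKD, against 2.29 and 2.62 RPKM in LucKD (1.00 ± 0.21, adjusted p = 0.00139, lost without MaelKD replicate 2). BmTE_RM1-412 (CR1) had 5.46 and 6.16 RPKM in MaelKD, against 3.29 and 3.63 RPKM in LucKD (0.61 ± 0.20, adjusted p = 0.0471), and lost its call in each omission. BmTE_RM6-4101 (CR1-L2) had 3.78 and 4.70 RPKM in MaelKD, against 1.31 and 3.21 RPKM in LucKD (0.74 ± 0.24, adjusted p = 0.0422). The upper control of BmTE_RM6-4101 came close to MaelKD, and the call was lost with trimmed-mean scaling and in each omission but that of LucKD replicate 2. In the limma fit of the deposited values no entry passed among 14 Jockey, 10 RTE-BovB and 8 R1 entries. With edgeR, 1 entry each of CRE, RTE, RTE-BovB and RTE-Proto2 also rose, and 1 R1 entry fell. With trimmed-mean scaling 1 RTE-Proto2 entry rose.

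No LINE that inserts at fixed places in the genome passed among the R1Bm, R2Bm, TRAS and SART entries tested. R2Bm and R1Bm, which insert into the ribosomal RNA genes, had 71.0 and 65.6 RPKM (R2Bm) and 51.8 and 45.2 RPKM (R1Bm) in MaelKD, against 70.9 and 58.9 RPKM (R2Bm) and 58.4 and 53.7 RPKM (R1Bm) in LucKD. The R2Bm groups overlap and the R1Bm groups lie a little apart (adjusted p = 0.91 and 0.628). TRAS and SART elements insert into the telomeric repeats, and 0 of the 3 tested passed. TRAS1 had 7.95 and 6.26 RPKM in MaelKD, against 8.56 and 12.1 RPKM in LucKD (adjusted p = 0.183), and SART1 had 10.9 and 9.94 RPKM in MaelKD, against 9.32 and 8.44 RPKM in LucKD (adjusted p = 0.632).

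Among entries with a class, the smallest adjusted p was that of a DNA transposon. BmTE_RM6-5630, of the TcMar-m44 group related to Tc1 and mariner, had 14.95 and 13.8 RPKM in MaelKD, against 3.83 and 3.70 RPKM in LucKD (log2 difference 1.69 ± 0.19, adjusted p = 7.07e-08). The libraries of each group differ little and the groups lie well apart. BmTE_RM6-8256, a Sola element, had 15.04 and 15.9 RPKM in MaelKD, against 7.47 and 8.24 RPKM in LucKD (0.90 ± 0.19, adjusted p = 0.0012, lost without MaelKD replicate 2). Mariner-5_BM, of the mariner group, had 2.31 and 3.10 RPKM in MaelKD, against 0.826 and 1.04 RPKM in LucKD (0.93 ± 0.24, adjusted p = 0.00842), a call lost without LucKD replicate 1 and without MaelKD replicate 2. The other 50 DNA transposons did not pass, among them BmpiggyBac-MER85 with 394 and 438 RPKM in MaelKD, against 294 and 360.0 RPKM in LucKD (0.35, adjusted p = 0.418).

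SINEs include the most abundant transposon RNA per length in these cells. Bm1, the main silkworm SINE, had 1445 and 1545 RPKM in MaelKD, against 1708 and 1198 RPKM in LucKD. The MaelKD values lie between the control values (adjusted p = 0.963). SINE-1_BM had 397 and 468 RPKM in MaelKD, against 277 and 309 RPKM in LucKD, and missed the threshold (log2 difference 0.56 ± 0.20, adjusted p = 0.0772). Neet and ChoBm1, of the SBTE group, rose. These 2 are SINEs by label, with recovered lengths of 4046 and 5412 nt, beside 354 nt for Bm1. Neet had 5.87 and 4.78 RPKM in MaelKD, against 1.52 and 1.60 RPKM in LucKD (1.30 ± 0.22, adjusted p = 8.99e-05). ChoBm1 had 17.6 and 15.3 RPKM in MaelKD, against 9.76 and 11.4 RPKM in LucKD (0.59 ± 0.19, adjusted p = 0.0334), and lost its call in each omission. Minichikuri fell, with 18.6 and 23.8 RPKM in MaelKD, against 31.1 and 33.3 RPKM in LucKD (-0.59 ± 0.19, adjusted p = 0.0334). It also lost its call in each omission, and did not pass with edgeR.

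On the log2(RPKM + 1) scale the 3 largest rises were in unclassified entries whose names start with BmTE_RM1. This name start is common: of 191 tested entries with it, 18 rose and 4 fell, beside 41 and 13 of all 490. With edgeR and with a pseudocount of 0.1, BmTE_RM6-5356 and BmTE_RM6-4364 were among the first 3 of the called entries. BmTE_RM1-644 had 79.3 and 64.2 RPKM in MaelKD, against 11.0 and 13.5 RPKM in LucKD (2.45 ± 0.19, adjusted p = 3.53e-11). BmTE_RM1-432 had 234 and 238 RPKM in MaelKD, against 52.3 and 51.4 RPKM in LucKD (2.17 ± 0.19, adjusted p = 6.19e-10). BmTE_RM1-413 had 97.8 and 102 RPKM in MaelKD, against 24.1 and 23.2 RPKM in LucKD (2.04 ± 0.18, adjusted p = 8.03e-10). In each of these the distance between the groups is many times that between replicates.

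Others with names of the same kind were abundant in control cells too. BmTE_RM1-43 had 444 and 369 RPKM in MaelKD, against 121 and 97.5 RPKM in LucKD (1.89 ± 0.21, adjusted p = 3.31e-08). BmTE_RM1-42 had 729 and 467 RPKM in MaelKD, against 239.6 and 159.6 RPKM in LucKD (1.57 ± 0.24, adjusted p = 2.28e-05). In both, replicate 1 was the higher library of each group, and the lower MaelKD value still exceeded the higher control.

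Other unclassified entries had levels below 50 RPKM in both groups. BmTE_RM6-4376 had 26.4 and 20.9 RPKM in MaelKD, against 5.51 and 5.71 RPKM in LucKD (1.89 ± 0.19, adjusted p = 8.69e-09). BmTE_RM5-3163 had 39.7 and 39.4 RPKM in MaelKD, against 10.7 and 11.4 RPKM in LucKD (1.76 ± 0.18, adjusted p = 8.92e-09). BmTE_RM1-57 had 44.6 and 33.8 RPKM in MaelKD, against 17.9 and 17.8 RPKM in LucKD (1.08 ± 0.19, adjusted p = 0.000124). At low level the log2(RPKM + 1) scale understates the change, as in BmTE_RM6-5356. It had 2.89 and 2.38 RPKM in MaelKD, from 83 and 55 reads, against 0.463 and 0.381 RPKM in LucKD, from 13 and 8 reads. Its ratio of means was 6.25 and its log2 difference 1.35 ± 0.24 (adjusted p = 0.000202). BmTE_RM6-4364 had 2.53 and 3.55 RPKM in MaelKD, against 0.553 and 0.471 RPKM in LucKD (1.41 ± 0.25, adjusted p = 0.000202).

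The remaining 5 of the 15 largest unclassified rises had log2 differences of 0.93 to 1.34, and each lost the call in at least 1 omission. BmTE_RM5-6906, BmTE_RM6-1880, BmTE_RM6-2892 and BmTE_RM6-5745 did not pass without MaelKD replicate 2 (log2 difference 0.92 to 1.12, adjusted p 0.0693 to 0.0880). BmTE_RM6-2892 did not pass without LucKD replicate 2 either, and BmTE_RM1-87 did not pass without MaelKD replicate 1. The other 8 unclassified rises had log2 differences of 0.65 to 0.89, and each of them also lost the call in at least 1 omission. Of these, BmTE_RM1-343 rests on few reads, 22 and 15 in MaelKD, against 7 and 6 in LucKD.

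**Figure D3:**
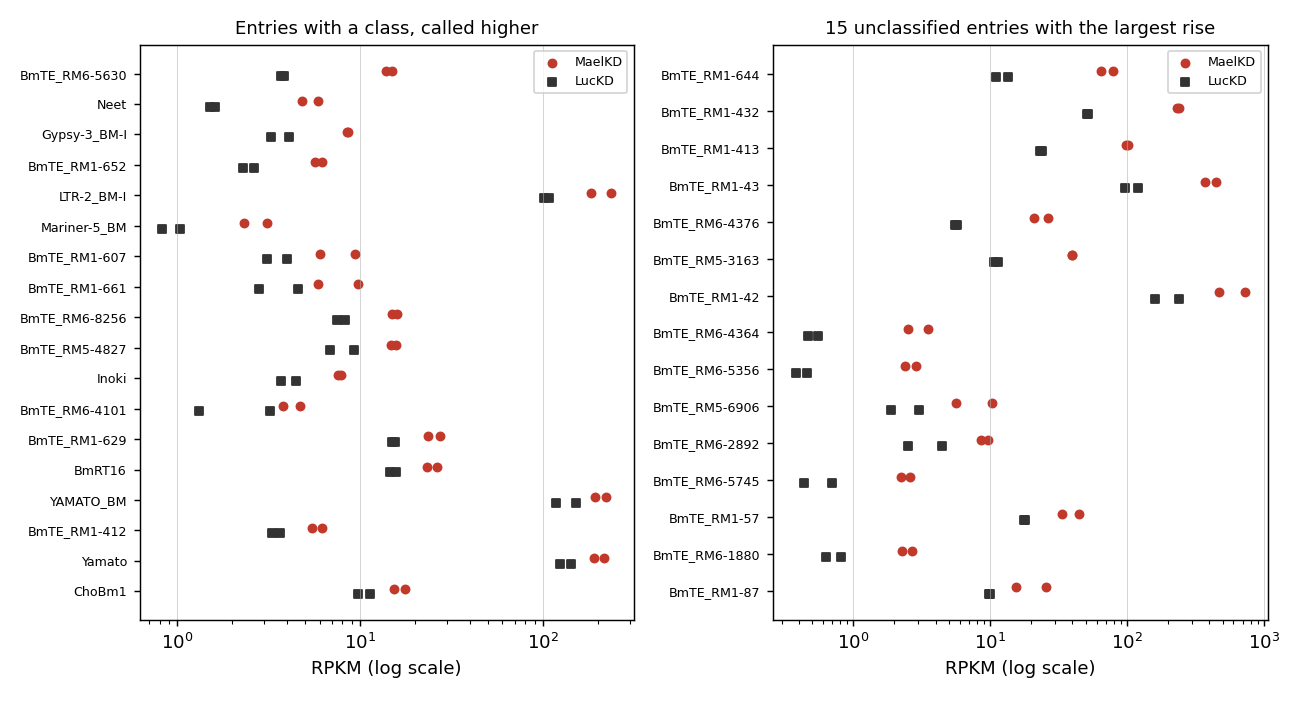
RPKM (log axis) of the 18 entries with a class that were called higher (left) and of the 15 unclassified entries with the largest rise (right), with 1 point per MaelKD and LucKD library. No entry shown has overlapping groups, and BmTE_RM1-644 stands at 79.3 and 64.2 RPKM in MaelKD, against 11.0 and 13.5 RPKM in LucKD.

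The 13 entries that fell had median levels of 5.59 RPKM in MaelKD and 9.80 RPKM in LucKD, beside 4.55 RPKM in MaelKD and 4.73 RPKM in LucKD over all tested entries. Beside the Gypsy, Pao and SINE entries above they were 9 unclassified entries. BmTE_RM6-181 had 3.49 and 2.90 RPKM in MaelKD, against 6.63 and 8.47 RPKM in LucKD (-1.02 ± 0.21, adjusted p = 0.0012). BmTE_RM6-3840 had 0.330 and 0.435 RPKM in MaelKD, from 85 and 90 reads, against 1.63 and 1.83 RPKM in LucKD, from 410 and 345 reads (-0.98 ± 0.25, adjusted p = 0.00762), and lost its call in each omission. Its ratio of means was 0.221. BmTE_RM1-178 had 30.0 and 25.4 RPKM in MaelKD, against 48.4 and 46.1 RPKM in LucKD (-0.75 ± 0.18, adjusted p = 0.0053). TE-1_BM had 12.2 and 11.1 RPKM in MaelKD, against 19.2 and 20.1 RPKM in LucKD (-0.71 ± 0.18, adjusted p = 0.00762). Groups do not overlap in any of the 4.

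The other 5 were BmTE_RM1-424, BmTE_RM5-345, BmTE_RM6-622, BmTE_RM1-50 and BmTE_RM1-614, with differences of -0.93 to -0.60. BmTE_RM1-424 rests on few reads, 15 and 15 in MaelKD, against 38 and 30 in LucKD, and did not pass with edgeR (adjusted p = 0.128). BmTE_RM1-50 did not pass in any of the 4 omissions, with a pseudocount of 0.1 (adjusted p = 0.0520), with trimmed-mean scaling (adjusted p = 0.0943) or with edgeR (adjusted p = 0.0528). Of the 13 falls, that of Rikishi_Kabuki_type alone passed without MaelKD replicate 2, and the other 12 then had differences of -1.04 to -0.46 (adjusted p 0.0693 to 0.541).

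**Figure D4:**
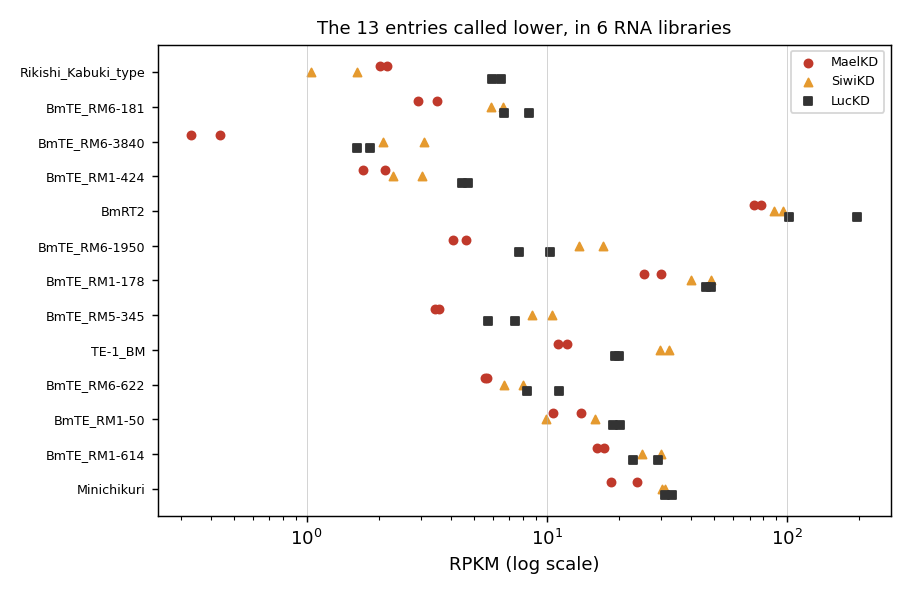
RPKM (log axis) of the 13 entries called lower, with 1 point per MaelKD, SiwiKD and LucKD library. MaelKD lies below LucKD throughout, and for BmTE_RM6-1950 SiwiKD lies above LucKD while MaelKD, at 4.64 and 4.06 RPKM, lies below it.

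The entry with the most RNA reads did not pass. BmTE_RM5-571, of no class, had 1252 and 1008 RPKM in MaelKD, against 1252 and 988 RPKM in LucKD (log2 difference 0.01, adjusted p = 0.989). BmTE_RM1-102 had 431 and 444 RPKM in MaelKD, against 465 and 500.3 RPKM in LucKD (-0.14, adjusted p = 0.805). BmTE_RM4-159 had 323 and 325 RPKM in MaelKD, against 278 and 217 RPKM in LucKD (0.40, adjusted p = 0.276). Of the 10 entries highest in MaelKD, BmTE_RM1-42, BmTE_RM1-43 and BmTE_RM1-432 rose. Of the 103 tested elements with a name of their own, 9 rose and 4 fell (median 0.03), beside 8.37% rising and 2.65% falling over all entries.

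The SiwiKD libraries allow the level after Mael knockdown to be set against that after siRNA against the PIWI protein Siwi. Tested directly, MaelKD differed from SiwiKD in 100 of 490 entries (20.4%), 8 of them higher in MaelKD (1.63%) and 92 lower (18.8%). With trimmed-mean scaling, which moves the median difference to 0.03 from -0.14, 12 were higher and 45 lower. The call count also depended on the libraries, at 34 with MaelKD replicate 2 left out, 61 with MaelKD replicate 1 left out and 63 when SiwiKD replicate 1 was left out.

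Several entries that did not pass against LucKD were far lower in MaelKD than in SiwiKD. Kabuki had 19.2 and 17.7 RPKM in MaelKD, against 83.4 and 83.1 RPKM in SiwiKD (log2 difference -2.12 ± 0.19, adjusted p = 1.56e-09). Noguchi had 22.4 and 17.7 RPKM in MaelKD, against 76.9 and 78.0 RPKM in SiwiKD (-1.90 ± 0.19, adjusted p = 8.18e-09). BmTE_RM6-2827, a Gypsy entry, had 38.4 and 28.7 RPKM in MaelKD, against 158 and 176 RPKM in SiwiKD (-2.29 ± 0.19, adjusted p = 2.42e-10). BmTE_RM6-2056, a DNA transposon of the TcMar-m44 group like BmTE_RM6-5630, had 2.15 and 1.55 RPKM in MaelKD, against 12.7 and 13.2 RPKM in SiwiKD (-2.30 ± 0.22, adjusted p = 4.3e-09). BmTE_RM6-5630 itself had 14.95 and 13.8 RPKM in MaelKD, against 15.8 and 15.3 RPKM in SiwiKD.

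Among the 41 entries that rose against LucKD, 13 were lower in MaelKD than in SiwiKD, 3 were higher and 25 did not pass. Over all 490 entries, 18.8% were lower and 1.63% higher. Against LucKD, 37 of the 41 were also higher in SiwiKD, beside 119 of all 490. The 41 entries were chosen with the same MaelKD libraries, and both knockdowns share the LucKD controls, so the counts are a description. BmTE_RM1-43 had 444 and 369 RPKM in MaelKD, against 456 and 355 RPKM in SiwiKD (0.01, adjusted p = 0.987). BmTE_RM1-412, the CR1 element, had 5.46 and 6.16 RPKM in MaelKD, against 17.7 and 22.0 RPKM in SiwiKD (-1.61, adjusted p = 5.54e-07). The 3 higher in MaelKD were BmTE_RM1-607 (0.84, adjusted p = 0.0122), BmTE_RM1-661 (0.68, adjusted p = 0.048) and BmTE_RM1-439 (0.78, adjusted p = 0.0271), and each lost the call without MaelKD replicate 2.

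SINE-1_BM also stood above SiwiKD, with 397 and 468 RPKM in MaelKD, against 238 and 238 RPKM in SiwiKD (0.85 ± 0.20, adjusted p = 0.00255, lost without MaelKD replicate 2). Of the 13 entries that fell against LucKD, 8 were also lower in MaelKD than in SiwiKD and none was higher, beside 18.8% lower over all entries. These 13, too, were chosen with the same MaelKD libraries, so the count is a description. BmTE_RM6-3840 had 0.330 and 0.435 RPKM in MaelKD, against 2.07 and 3.10 RPKM in SiwiKD (-1.36, adjusted p = 0.000197), and TE-1_BM had 12.2 and 11.1 RPKM in MaelKD, against 29.6 and 32.3 RPKM in SiwiKD (-1.34, adjusted p = 2.07e-06).

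Small RNA of 22 to 35 nt bound to Flag-tagged Siwi was measured in separate MaelKD and LucKD libraries, 2 of each, in RPM, reads scaled to library size. These give a second readout of 453 of the 490 entries. Over the 1004 entries tested in that table, 564 differed between MaelKD and LucKD (56.2%), 118 higher (11.8%) and 446 lower (44.4%). With trimmed-mean scaling the median moved to 0.07 from -0.44, and 455 differed (45.3%), 261 higher (26.0%) and 194 lower (19.3%). The direction for many entries thus depends on the scaling, and both are given.

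Most entries whose RNA rose had less Siwi-bound small RNA in MaelKD as the values were deposited. Of the 41, 32 were lower in MaelKD and 1 was higher, with a median log2 difference of -0.75. With trimmed-mean scaling it was 18 lower and 8 higher, with a median of -0.17. Of the 12 tested entries whose RNA fell, 5 were lower and 3 higher (median -0.25), or 2 and 7 with trimmed-mean scaling (0.33). Of the 400 whose RNA did not pass, 162 were lower and 68 higher (-0.30), or 66 and 141 with trimmed-mean scaling (0.23). The median small RNA level differed between these sets, at 145.6 RPM in MaelKD and 243 RPM in LucKD for entries that rose, and 33.4 RPM in MaelKD and 45.8 RPM in LucKD for those that did not pass, and its part in the counts was not tested. Across the 453 entries, the RNA and small RNA differences had a Spearman correlation of -0.13, a weak relation between entries that share libraries and are not independent.

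**Figure D5:**
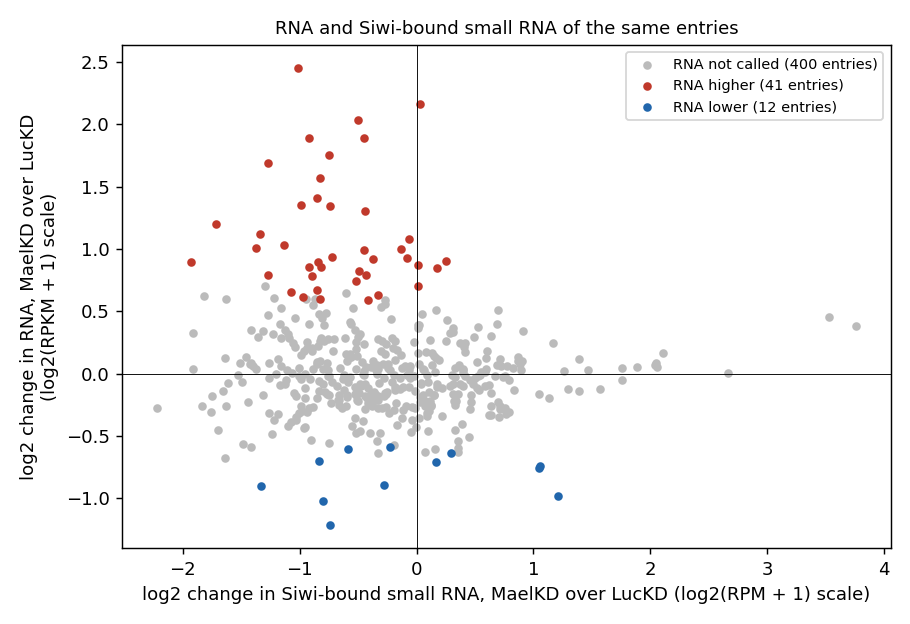
Log2 difference in RNA (log2(RPKM + 1) scale) against that in Siwi-bound small RNA (log2(RPM + 1) scale, as deposited), MaelKD over LucKD, for 453 entries. Of the 41 entries whose RNA rose, 32 were called lower in small RNA, and Bmmar6 and W-Sakura, at 2.11 and 2.67 in small RNA, were not called in RNA.

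Single entries show how the readouts sat together. BmTE_RM6-8256, the Sola element whose RNA rose, had 69.4 and 53.7 RPM of small RNA in MaelKD, against 252 and 222 RPM in LucKD (-1.93 ± 0.14, adjusted p = 1.64e-15). BmTE_RM6-5630 had 69.1 and 57.0 RPM in MaelKD, against 163 and 143 RPM in LucKD (-1.27 ± 0.14, adjusted p = 1.56e-10). Both stayed lower with trimmed-mean scaling (-1.35 and -0.69). BmTE_RM1-432, whose RNA rose by 2.17 on the log2(RPKM + 1) scale, did not pass in small RNA as deposited: 389.9 and 444 RPM in MaelKD, against 451 and 367 RPM in LucKD, with overlapping groups (0.03, adjusted p = 0.803). With trimmed-mean scaling it was higher (0.62, adjusted p = 7.68e-06). Yamato had 12518 and 12568 RPM in MaelKD, against 20975 and 23451 RPM in LucKD (-0.82 ± 0.07, adjusted p = 1.57e-12, and -0.23 with trimmed-mean scaling).

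Entries whose RNA fell differed in small RNA in both directions. BmTE_RM6-3840 gained small RNA, with 9561 and 9702 RPM in MaelKD, against 4242 and 4071 RPM in LucKD (1.21 ± 0.07, adjusted p = 4.71e-18). BmTE_RM1-178 had 287 and 263 RPM in MaelKD, against 136 and 129.9 RPM in LucKD (1.04 ± 0.11, adjusted p = 2.79e-10). BmRT2 lost small RNA together with its RNA, with 1462 and 1483 RPM in MaelKD, against 3641 and 3779 RPM in LucKD (-1.33 ± 0.07, adjusted p = 1.43e-18). All 3 kept their sign and call with trimmed-mean scaling (1.80, 1.63 and -0.75).

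Some elements gained Siwi-bound small RNA with no detected change of RNA. Bmmar6, a mariner element, had 4535 and 4590.1 RPM in MaelKD, against 1043 and 1065 RPM in LucKD (2.11 ± 0.07, adjusted p = 6.5e-25), while its RNA was 15.8 and 15.7 RPKM in MaelKD, against 11.9 and 16.4 RPKM in LucKD (adjusted p = 0.744). BMC1-Abe, a LINE, had 6767 and 7025 RPM in MaelKD, against 1971 and 2112 RPM in LucKD (1.76 ± 0.07, adjusted p = 2.01e-22), beside RNA of 5.73 and 5.14 RPKM in MaelKD and 4.07 and 6.68 RPKM in LucKD (adjusted p = 0.969). W-Sakura, the W chromosome entry, had 1183 and 1224 RPM in MaelKD, against 181 and 197 RPM in LucKD (2.67 ± 0.10, adjusted p = 2.68e-24), with RNA near the level threshold in both groups. BmTE_RM5-571 had 45444 and 36383 RPM in MaelKD, against 26923 and 28578 RPM in LucKD (0.55 ± 0.08, adjusted p = 1.56e-07), beside the RNA given above, which did not pass.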

How the data were processed

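RNA values were deposited by the authors as RPKM and small RNA values as RPM, per the file headers. The tools listed in the submitters' processing notes were STAR 2.7.9a, Trim Galore, Bowtie 1.3.0, cutadapt 3.1, bedtools and SAMtools. What each tool did, the genome build, the strand counted and how multiply matching reads were handled was not given in the sources used here. Per the labels' protocols, RNA libraries were stranded, from poly-A RNA and read in pairs. Small RNA was taken from Flag-Siwi immunoprecipitates.

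Entries averaging 1 or more across a table's 6 libraries were tested as log2(value + 1) with limma 3.58.1 in R 4.3.3 (lmFit, eBayes with a trend), 490 in RNA and 1004 in small RNA. All 6 libraries of a table entered each fit, tests were two-sided, and p-values were adjusted by Benjamini-Hochberg over all entries at a threshold of 0.05. Whole reads and entry lengths were recovered from the steps of the deposited RPKM for 978 of 978 entries above 0, within 0.001 reads, and were used in edgeR 4.0.16 as an alternative added after seeing the data. Small RNA totals were 3.02 and 1.84 M reads in MaelKD and 4.81 and 1.76 M in LucKD, and 3 reads there stand for 0.624 to 1.70 RPM over the 6 libraries. The libraries carry no stated molecular identifiers, so this limit covers counting error only. The limma fit was tested on simulated data first. No 2 libraries of a group agreed within counting noise (chi-square per entry at least 3.36).

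Members and lists were chosen with earlier results of these data known. The entries named were each called entry with a class, each called lower, the 15 largest unclassified rises, the 10 highest in MaelKD, elements with a name of their own, 3 entries on either side of the level threshold and the 10 largest differences from SiwiKD. Of the last and of the own-named elements, those that show the range are given. The Ago3 knockdown libraries entered the small RNA fit alone.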

Additional observations from a re-analysis of the deposited data

How the results depend on the processing

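The sign of each of the 54 RNA differences called between MaelKD and LucKD was the same without each MaelKD and LucKD library. It could not change there, since the groups of these entries do not overlap. The counts of calls did move. Against LucKD, 54 entries passed (41 higher, 13 lower). Without the level filter 19 passed (16 higher, 3 lower), and at a minimum mean of 10 RPKM 31 passed (24 and 7). Leaving out a library gave 18 to 43 calls (17 to 38 higher, 1 to 11 lower). Trimmed-mean scaling gave 53, a pseudocount of 0.1 gave 53, fitting the 4 compared libraries alone gave 63 and edgeR on recovered reads 61. Against SiwiKD, 100 passed, with 30 without the filter, 42 at that minimum, 57 with trimmed-mean scaling and 34 to 85 without a library. More or fewer entries are tested under the filters and fewer libraries enter the omissions. The p-values before adjustment moved as well. For BmTE_RM1-644, at the same difference of 2.45, limma gave 3.11e-06 without the filter and 5.13e-16 at a minimum mean of 10 RPKM. What moved the counts was not tested. In small RNA, 271 of the 453 entries passed, with 242 to 278 in the alternatives. Trimmed-mean scaling divided the LucKD small RNA libraries by 1.23 and 1.24 and the MaelKD small RNA libraries by 0.839 and 0.803. This raises the MaelKD over LucKD difference of any entry with reads in these libraries. The median over the 453 moved to 0.17 from -0.34, with 156 higher and 86 lower instead of 72 and 199. BmTE_RM1-413 was among the entries that changed sign, at 0.0901 with trimmed-mean scaling and -0.50 as deposited. With the replicate number as a block, 62 RNA entries passed against LucKD (47 higher, 15 lower), 108 against SiwiKD and 278 in small RNA. Over all tested entries, same-numbered libraries hardly deviated together (correlation 0.0217 for MaelKD and LucKD in RNA, -0.0461 in small RNA). This correlation cannot show whether they shared a culture or batch. RNA calls at the lowest levels rest on few reads, and depth limits them.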

Other observations

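Recovered lengths of some SINE entries were long for their label. Neet had 4046 nt, ChoBm1 5412 nt and Rinne 3437 nt, all listed in the SBTE group, beside 354 nt for Bm1 and a median of 896.5 nt over the 490 tested entries. BmTE_RM1-424, whose RNA fell, was listed at 0.331 and 0 RPM of Siwi-bound small RNA in MaelKD and at 0 in both LucKD libraries, and was not tested there.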
